A study of Rattus norvegicus with 102 samples.

Results

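The comparison described here sets the CA3 subfield of the hippocampus in old rats against CA3 in young rats. Members were all libraries whose column label names CA3 and an old or young rat. They numbered 34 of the 102 libraries in the series, with 24 from old and 10 from young animals. All were male Fischer 344 rats with no transgene or drug, and every rat had been trained in a water maze. Young rats were 5 to 6 months of age and old rats 17 to 22 months. The old rats comprised 12 aged unimpaired (AU) and 12 aged impaired (AI) animals, a division made from maze performance. Rat identifiers fall into an R9 series, with 5 young and 11 old rats, and an R1 and R2 series, with 5 young and 13 old rats. What the 2 series stand for is not given in the labels. The series was a covariate in age comparisons that used both series, apart from an alternative setting run without it. Fits of a single series had no such covariate. Each library came from a different animal and held poly-A RNA of hand-dissected tissue, sequenced on an Ion Proton instrument. Values are the authors' normalized counts, that is, reads for a gene divided by a library size factor.

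CA3 pyramidal neurons receive mossy fiber input from the dentate gyrus (DG) and recurrent input from each other, and they project to CA1. Besides neurons the tissue holds microglia, astrocytes, oligodendrocytes and vessel-associated cells. Microglia and other macrophages can display peptides on major histocompatibility complex (MHC) class II molecules, which are pairs of an alpha and a beta chain assembled with the invariant chain Cd74. Complement proteins such as C3 and C4 tag debris and synapses for uptake, and Fc receptors on microglia bind antibody-coated material. In rodent brain, genes of these groups are known to be sensitive to age.

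Libraries held 5484504 to 15010580 reads assigned to genes, with medians of 10812074 in young and 9433352.5 in old rats. The labelled subfield was checked with a score for each subfield, the mean log2 level of its marker genes after centring each gene over the 102 libraries, from 11 CA3, 9 CA1 and 10 DG markers. In the R1 and R2 series the CA3 score was the highest of the 3 in 18 of 18 libraries, with a median of 0.69 for CA3 and -0.50 for CA1. In the R9 series it was the highest in 1 of 16. There the CA1 score was highest in 11 libraries, including all 5 young ones, and the DG score in 4. The 9 CA1 markers include Dcn, which is also in the meningeal and fibroblast list, and scores without Dcn were not computed. The markers thus go against the CA3 label in 15 libraries of the R9 series, and values for the R1 and R2 series alone stand beside the main genes and lists below. The library labelled young rat R9876 also stood apart. Its summed level of the 14 measured meningeal and fibroblast genes was 148400, while the next library, from an old rat, had 14440 and the young median was 4849. Values without that library are given where it moved a result.

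**Figure D1:**
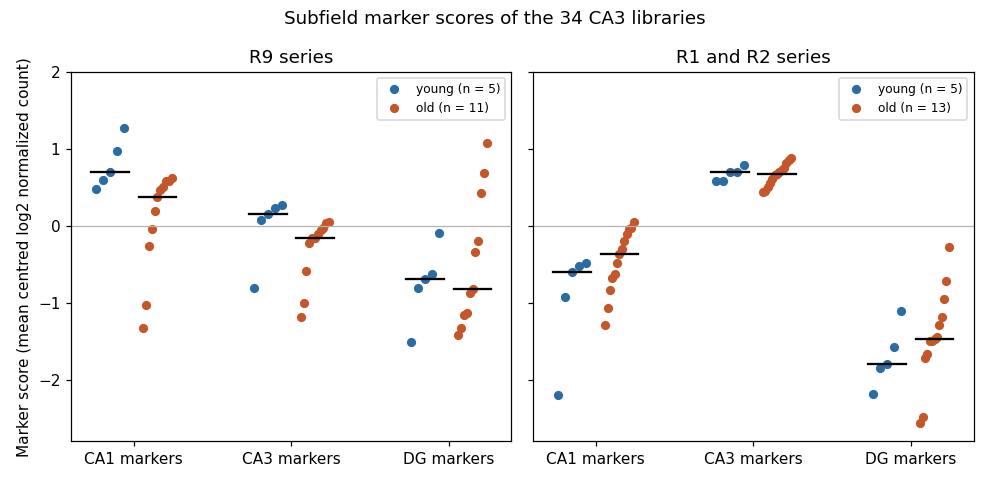
Marker scores (log2 units, centred over all 102 libraries) of the 34 CA3 libraries for CA1, CA3 and DG markers, by identifier series. Points are libraries, blue for young and orange for old, and bars are medians. In the R1 and R2 series every CA3 score lies above the CA1 and DG scores of the same libraries, whereas in the R9 series CA1 scores reach 1.27 and DG scores 1.08.

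At the level of single genes, 1 of 16471 genes tested passed an adjusted p of 0.05 (limma with Benjamini-Hochberg adjustment), which is 0.00607% of the genes. It was AABR07006310.1 (ENSRNOG00000021084), which was higher in old rats. No gene was lower in old rats at that threshold. At an unadjusted p of 0.05, 324 genes passed (1.97%), 152 of them higher (0.923%) and 172 lower (1.04%). The edgeR quasi-likelihood and DESeq2 tests on the recovered reads each called 1 gene as well, the same AABR07006310.1. The median log2 difference over all genes was -0.03, 90% of genes lay between -0.46 and 0.24, and the median standard error was 0.17, so for a typical gene small differences were not detectable with these animals.

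AABR07006310.1 carries a name derived from a genome clone, and no function is paired with it in the sources used here. Its normalized count in the 5 young rats of the R9 series was 598, 608, 626, 701 and 707. In the 11 old rats of that series it ranged from 738 to 1029 with a median of 856. In the 5 young rats of the R1 and R2 series it was 483, 492.99, 638, 648 and 687, and in the 13 old rats it ranged from 698 to 1094 with a median of 819. Old and young libraries therefore did not overlap within either series, and 23 of 24 old libraries exceeded every young library. The log2 difference was 0.48 (SE 0.08, 95% CI 0.32 to 0.65), a 1.399-fold higher level with adj-p = 0.0088 (limma). It was 0.41 with R9 rats alone (adj-p = 0.50, limma) and 0.56 in the R1 and R2 series alone (adj-p = 1.0, limma), so the call did not hold with either series by itself. The call was also lost without young rat R2175 (adj-p = 0.053, limma) or without young rat R2221 (adj-p = 0.056, limma).

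Separation of every old from every young library within a series was rare. In the R1 and R2 series 4 genes had all 13 old libraries above all 5 young ones, 0.0243% of the genes, and none had all old libraries below. The 4 were AABR07006310.1, the E-cadherin gene Cdh1, and the class II beta chains RT1-Bb and RT1-Db1. In the R9 series 5 genes (0.0304%) had all 11 old libraries above and 4 genes (0.0243%) had them below. Of these, the named genes above were AABR07006310.1, the RNA-editing enzyme Adarb1, the actin regulator Fmnl1 and Rgl3, and the named genes below were the somatostatin receptor Sstr4 and the adaptor subunit Ap4b1. Sstr4 ranged from 289.9 to 382 in the young and from 131 to 256 in the old rats of that series. Only AABR07006310.1 was in both sets. These genes were picked out after their values were seen.

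**Figure D2:**
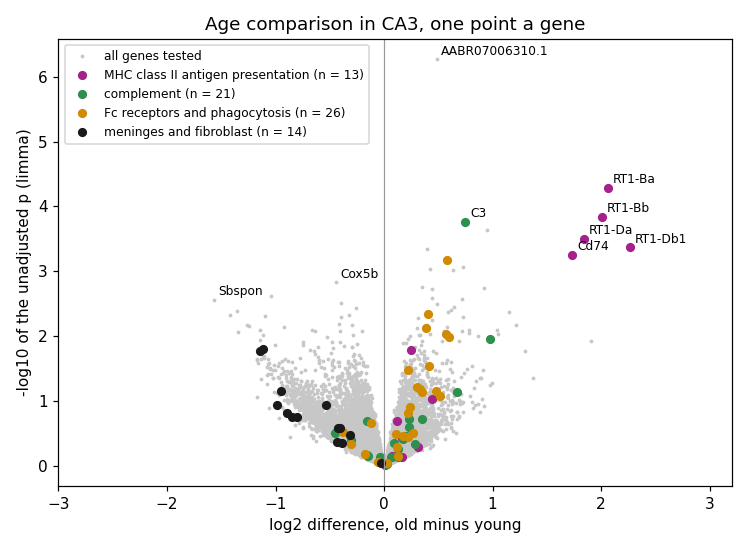
Log2 difference between old and young CA3 (horizontal) against -log10 of the unadjusted limma p (vertical) for 16471 genes. Coloured points are the tested members of 4 lists. AABR07006310.1 has the smallest p at a log2 difference of 0.48, and 5 class II points lie furthest to the right, between 1.74 and 2.27.

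The largest differences toward old rats in the immune lists were those of the class II genes, although none passed the adjusted test. The list held 15 matched genes, of which 13 were tested and RT1-DOa and RT1-Ha were below the level filter. All 13 differences were above 0, against 40.5% of all genes, and 6 had an unadjusted p under 0.05 toward old rats, against 0.923% of all genes. The median log2 difference of the list was 0.31, beside -0.03 for all genes. In bulk tissue, more cells of a type and more RNA per cell cannot be told apart. The median was 0.59 with R1 and R2 rats alone, 0.29 with R9 rats alone and 0.40 without young rat R9876. With R1 and R2 rats alone 5 members had an unadjusted p under 0.05 toward old rats, against 0.625% of all genes in that series.

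The 4 genes for the conventional class II chains with the largest differences, RT1-Ba and RT1-Da (alpha chains) and RT1-Bb and RT1-Db1 (beta chains), lie on chromosome 20, and the 250 bases before the start of each hold the letters CTGATTGG. This run contains an inverted CCAAT box, the core of the Y box of class II promoters. The windows of 8 of the 15 list genes were searched, and the other members were not. The run was found on the strand of the gene in these 4 genes and also in RT1-DOa and RT1-Ha, but not in the windows of Cd74 or RT1-DMa. It was present on either strand in 1068 of 33469 RefSeq promoters of that length (3.19%). Each stretch of 80 bases is given 5′ to 3′ on the strand of the gene, with the shared run in capitals, from the GRCr8 assembly of RefSeq, which is not the build of the counts. A match of letters is a description of the sequence and not a measured binding site. The stretches lie at chr20:4576951-4577030 on the plus strand (RT1-Ba), chr20:4604163-4604242 on the minus strand (RT1-Bb), chr20:4515303-4515382 on the plus strand (RT1-Da) and chr20:4560226-4560305 on the minus strand (RT1-Db1), and the run starts 46, 64, 52 and 83 bases before the gene start in that order.
RT1-Ba: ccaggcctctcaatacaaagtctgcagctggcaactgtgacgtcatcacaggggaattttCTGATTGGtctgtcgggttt
RT1-Bb: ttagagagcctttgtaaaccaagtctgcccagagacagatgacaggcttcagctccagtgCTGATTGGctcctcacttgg
RT1-Da: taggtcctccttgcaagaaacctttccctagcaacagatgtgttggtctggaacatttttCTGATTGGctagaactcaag
RT1-Db1: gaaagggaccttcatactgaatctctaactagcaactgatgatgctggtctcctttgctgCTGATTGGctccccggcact

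RT1-Ba had the smallest p of the list. Its normalized counts in R9 young rats were 8.13, 10.5, 18.0, 105 and 204, and R9 old rats ranged from 34.8 to 193 with a median of 100.4. Young R1 and R2 values were 21.6, 23.0, 32.3, 48.7 and 56.3, and the old values ranged from 55.2 to 2071 with a median of 185. Of the high young values, that of rat R9876 lay above every old R9 rat and that of rat R9780 inside their range. The log2 difference was 2.07 (SE 0.45, 95% CI 1.15 to 2.98, adj-p = 0.43, limma), and it was 2.64 in the R1 and R2 series alone (adj-p = 0.87, limma) and 1.46 among R9 rats. Without young rat R9876 it was 2.40 with adj-p = 0.017 (limma), 1 of the 3 genes called in that fit (0.0182% of the genes). RT1-Ba was also 1 of the 18 genes called when noisy libraries were given less weight (0.109%, log2 difference 2.41, adj-p = 0.0027, limma) and 1 of the 4 called with the CA1, DG and ependymal scores as covariates (0.0243%, log2 difference 2.35, adj-p = 0.039, limma).

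The partner chain RT1-Bb followed the same order of groups. R9 young rats had 6.97, 11.99, 14.3, 134 and 218, and R9 old rats ranged from 24.8 to 231 with a median of 92.2. R1 and R2 young rats had 30.1, 30.4, 41.3, 56.3 and 63.3, and the old rats ranged from 114 to 2665 with a median of 249.8. The 2 ages overlapped in the R9 series and not in the R1 and R2 series. The log2 difference was 2.01 (SE 0.47, adj-p = 0.71, limma), and 2.37 without young rat R9876 (adj-p = 0.030, limma). It was 2.75 in the R1 and R2 series alone (adj-p = 0.39, limma).

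For RT1-Db1, the young values were 8.99, 11.6, 12.4, 112 and 191 among R9 rats and 6.18, 18.8, 25.8, 38.1 and 71.8 in the R1 and R2 series. Old rats ranged from 2.36 to 231 (median 92.3) among R9 rats and from 91.0 to 2476 (median 176) in the R1 and R2 series. The log2 difference, 2.27 (SE 0.58, adj-p = 0.93, limma), was the largest of the list, with the lowest old library below every young one. It was 2.64 without young rat R9876 (adj-p = 0.15, limma) and 3.33 in the R1 and R2 series alone (adj-p = 0.39, limma). For RT1-Da, the young values were 22.5, 23.9, 30.2, 126 and 324 among R9 rats and 11.1, 23.9, 55.3, 59.3 and 84.0 in the R1 and R2 series. Old rats ranged from 47.6 to 1655 over both series, and the log2 difference was 1.84 (SE 0.46, adj-p = 0.87, limma). It was 2.19 without R9876 (adj-p = 0.063, limma) and 2.73 in the R1 and R2 series alone (adj-p = 1.0, limma). All 24 old libraries were above the young median of RT1-Da. Reads of class II loci can be shared between near-identical chains, so the split between them is uncertain, as it is between C4a and C4b.

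Cd74, the invariant chain, was the most abundant of these 5 in normalized counts, a scale that does not correct for gene length. R9 young rats had 88.4, 99.5, 130.1, 628 and 744, and R9 old rats ranged from 118 to 1276 with a median of 490.1. R1 and R2 young rats had 123, 172, 177, 187 and 352, and old rats ranged from 136 to 9967 with a median of 839. The log2 difference was 1.74 (SE 0.46, adj-p = 1.0, limma), with 1.99 in the absence of R9876 (adj-p = 0.27, limma) and 2.52 in the R1 and R2 series alone (adj-p = 1.0, limma). The highest Cd74 and RT1-Ba values of all CA3 libraries were in the same old impaired rat, R2238, followed by the old unimpaired rat R2185.

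The other members of the list, which load peptide, cut the invariant chain or regulate class II transcription, had smaller differences. The log2 difference was 0.25 for the protease Ctss (unadjusted p = 0.017, limma), 0.44 for RT1-DMb and 0.07 for RT1-DMa. It was 0.16 for the class II transactivator Ciita, with young libraries from 0.95 to 17.0 and old libraries from 0 to 47.9. That of Ciita was -1.01 among R9 rats and 1.28 among R1 and R2 rats. The T-helper and microglial marker Cd4 gave 0.31 (SE 0.47). The age comparison by series was tested for each gene as an interaction, and it passed for 0 of 16471 genes at an adjusted p of 0.05 (limma), with 323 at an unadjusted p of 0.05 (1.96%) and no other tool run. For the 5 genes above, the R9 minus R1 and R2 difference ranged from -2.19 (RT1-Db1) to -1.18 (RT1-Ba), with the smallest unadjusted p at 0.050 (RT1-Da, limma).

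**Figure D3:**
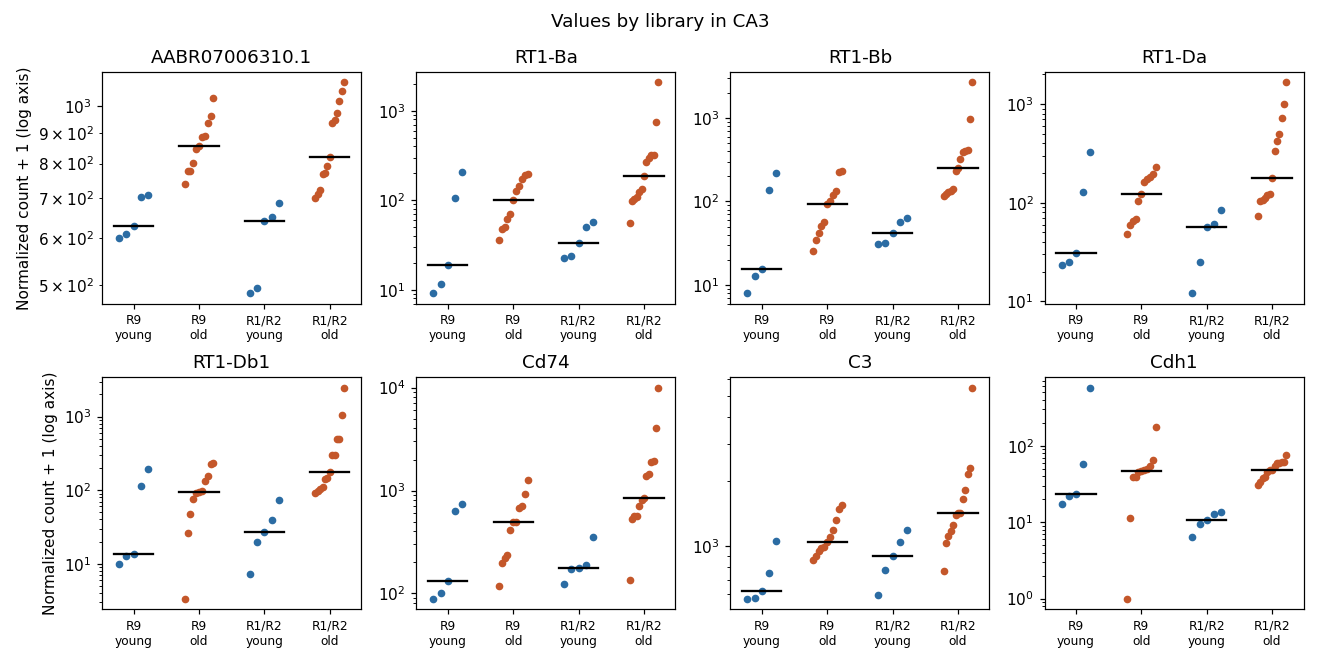
Normalized count plus 1 (log axis) in each CA3 library for 8 genes, by identifier series and age. Points are libraries, blue for young and orange for old, and bars are medians. AABR07006310.1 separates the ages in both series, while for the class II genes and Cdh1 the highest young R9 libraries lie within or above the old R9 libraries.

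Microglial genes also lay above 0 on the whole. Of 25 tested markers, 24 were above 0, against 40.5% of all genes, and 6 had an unadjusted p under 0.05 toward old rats, against 0.923%, with a median of 0.23. With R1 and R2 rats alone 1 of the 25 had an unadjusted p under 0.05 toward old rats, against 0.625% of all genes. The median was 0.15 among R9 rats, 0.30 among R1 and R2 rats and 0.22 without young rat R9876. The summed level of the list ranged from 7974 to 10320 in young and from 8089 to 20540 in old rats, and its part in the class II differences was not tested.

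Among the defining markers, the purinergic receptor P2ry12, the fractalkine receptor Cx3cr1 and the calcium-binding protein Aif1 differed in size. Cx3cr1 ranged from 351 to 517 in young rats (median 395) and from 372 to 1006 in old rats (median 519), and 12 of 24 old libraries lay above every young one. Its log2 difference was 0.35 (SE 0.10, unadjusted p = 0.0018, adj-p = 1.0, limma), and 0.27 in the R1 and R2 series alone (unadjusted p = 0.12, limma). P2ry12 gave 0.34 (SE 0.13, unadjusted p = 0.014, limma), with medians of 195 and 233. Aif1 gave 0.02 (SE 0.16), with medians of 219 in young and 208 in old rats, and its sign changed to -0.02 in the R1 and R2 series alone. Trem2, a lipid-sensing receptor of microglia, had medians of 141 and 196 and a log2 difference of 0.38 (SE 0.13), and its signalling adaptor Tyrobp gave 0.57 (SE 0.21). Gpnmb, a glycoprotein of the disease-associated microglia list, gave 0.53 (SE 0.20). Of the 14 tested members of that list 6 were above 0, against 40.5% of all genes, and the list median was -0.03.

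Fc receptor and phagocytosis genes had 7 of 26 tested members with an unadjusted p under 0.05 toward old rats, against 0.923% of all genes, and none toward young rats, with a median of 0.23. With R1 and R2 rats alone 2 of the 26 did so, against 0.625% of all genes. Fcgr2b, the inhibitory Fc gamma receptor, ranged from 54.4 to 158 in young rats (median 94.6) and from 98.7 to 281 in old rats (median 139). All 24 old libraries were above the young median, and the log2 difference was 0.58 (SE 0.16, adj-p = 1.0, limma), or 0.65 in the R1 and R2 series alone. The activating receptor Fcgr3a gave 0.60 (SE 0.22) and the shared signalling chain Fcer1g 0.40 (SE 0.13). The median of the list was 0.19 among R9 rats and 0.31 among R1 and R2 rats.

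In the complement list, 2 of 21 tested members had an unadjusted p under 0.05, both toward old rats, against 0.923% of all genes. The median was 0.13, with 0.02 among R9 rats, 0.26 among R1 and R2 rats and 0.235 without R9876. C3, the central component, was 572, 574, 617, 751 and 1053 in R9 young rats and 866 to 1546 in R9 old rats. Among R1 and R2 rats it was 593, 779, 905, 1044 and 1195 in young rats and 766 to 5447 in old rats. The ages overlapped in both series, yet 12 of 24 old libraries exceeded all 10 young ones and all 24 exceeded the young median. The log2 difference was 0.75 (SE 0.18, 95% CI 0.39 to 1.11, adj-p = 0.71, limma), with 0.67 among R9 rats and 0.82 among R1 and R2 rats. C4a, which gives rise to an opsonin, had a median of 109.9 in young and 210.0 in old rats and a log2 difference of 0.97 (SE 0.36). Its highest young value, 459, was again in R9876, and without that library the difference was 1.21. Its highest old value, 3530.5, was in R2238 and the next was 308.55, and without R2238 the difference was 0.80. C4b gave 0.67 (SE 0.36), or 0.92 without R9876.

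The 18 tested astrocyte genes had smaller log2 differences than RT1-Ba, RT1-Bb, RT1-Da and RT1-Db1, which was not tested as a difference. Gfap, the intermediate filament protein, ranged from 6589 to 19935 in young and from 10921 to 25190 in old rats, with medians of 12849 and 16869. Its log2 difference was 0.44 (SE 0.15, unadjusted p = 0.0056, adj-p = 1.0, limma), and 20 of 24 old libraries lay above the young median. In the R1 and R2 series alone it was 0.32 (unadjusted p = 0.10, limma). The defining markers Aqp4, the water channel, and Aldh1l1, a folate enzyme, gave 0.03 (SE 0.17) and 0.03 (SE 0.14). Of 18 tested astrocyte genes 15 were above 0, against 40.5% of all genes, with a median of 0.11. In the R1 and R2 series alone 10 of 18 were above 0, with a median of 0.04. Among R9 rats 16 of 18 were above 0, with a median of 0.18. S100b, a calcium-binding protein, gave 0.25 (SE 0.11), and Slc14a1, a urea transporter of the reactive astrocyte list, gave 0.18 (SE 0.08).

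MHC class I genes had 14 of 19 tested members above 0 (median 0.12) and interferon-stimulated genes 12 of 30 (median -0.04), with none past an unadjusted p of 0.05 in either list. Of all genes, 40.5% were above 0. The median of the interferon list was -0.46 among R9 rats and 0.195 among R1 and R2 rats. Cytokines, chemokines and their receptors had 17 of 27 above 0 and none past an unadjusted p of 0.05. In the lymphocyte list 5 of 18 matched genes were tested, with 3 above 0 and 2 below. Among them was the migration receptor Gpr183 (log2 difference 0.61, SE 0.26, unadjusted p under 0.05). Cd3e, the T-cell receptor subunit that defines the type, ranged from 0 to 8.52 in young and from 0 to 90.6 in old rats, with a log2 difference of 0.56 (SE 0.65). Its mean was 2.25 in young and 8.85 in old rats, so it passed the level filter only through old libraries.

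Cdh1, which holds epithelial cells together, was called with R1 and R2 rats alone and not with all rats. Young R1 and R2 rats had 5.41, 8.58, 9.74, 11.985 and 12.8, whereas old rats ranged from 29.6 to 75.1 with a median of 47.0. The log2 difference there was 2.24 with adj-p = 0.00038 (limma), and Cdh1 was the single gene called in that series alone (0.00607%). In R9 rats alone no gene was called (0.0% of the genes), with 457 at an unadjusted p of 0.05. In the R9 series young rats had 16.5, 21.0, 22.1, 57.5 and 577, with the value of 577 in R9876, and old rats ranged from 0 to 178 with a median of 45.5. Over both series the log2 difference was 0.87 (SE 0.53, adj-p = 1.0, limma), and without R9876 it was 1.37 (adj-p = 1.0, limma). On recovered reads the sign turned, to -0.078 by edgeR (adj-p = 1.0) and -0.045 by DESeq2. The difference between the series was -2.81 (unadjusted p = 0.0065, adj-p = 1.0, limma). Among cadherins and protocadherins, 31 of 44 were above 0, against 40.5% of all genes, with a median of 0.09. Toward old rats 3 had an unadjusted p under 0.05, against 0.923% of all genes. These were Pcdhb21 (0.59, SE 0.19), Pcdhb4 (0.37, SE 0.16) and Cdh23 (0.44, SE 0.22). With R1 and R2 rats alone 1 of the 44 passed toward old rats, against 0.625% of all genes in that series.

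Toward young rats, the 5 named genes with the smallest p were Cox5b, Dmrta2, Sbspon, Thsd7b and Wdr5, and all 5 had adj-p = 1.0 (limma). Cox5b, a subunit of cytochrome c oxidase, ranged from 511 to 1264 in young rats (median 851) and from 399.9 to 1070.1 in old rats (median 598). Its log2 difference was -0.45 (SE 0.13). Dmrta2, a transcription factor of cortical development, ranged from 9.74 to 32.4 in young and from 0 to 22.8 in old rats, and 13 of 24 old libraries lay below every young one. Its log2 difference was -1.04 (SE 0.32). Sbspon gave -1.57 (SE 0.49) with medians of 12.9 and 4.93, Thsd7b gave -0.40 (SE 0.13) with medians of 241 and 188, and Wdr5, a subunit of histone methyltransferase complexes, gave -0.26 (SE 0.08) with medians of 280.2 and 241.

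In the mitochondrial respiratory chain 33 of 41 tested members were below 0 and 8 above, while 40.5% of all genes were above 0. The median was -0.07, and 3 members had an unadjusted p under 0.05 toward young rats, against 1.04% of all genes. The 3 were Cox5b, the ATP synthase subunit Atp5o (-0.33, SE 0.14) and Atp5a1 (-0.16, unadjusted p = 0.029, limma). With R1 and R2 rats alone 15 of 41 were above 0 and the median was -0.04. In the oxidative stress list 19 of 30 tested members were below 0 and 11 above, with a median of -0.06. An unadjusted p under 0.05 was reached by 3 members, against 1.97% of all genes. Those were the peroxiredoxins Prdx1 (-0.68, SE 0.27) and Prdx2 (-0.23), which remove hydrogen peroxide, and in the other direction the metallothionein listed as Mt1 (0.63, SE 0.29). Among lysosomal genes 25 of 37 were above 0, against 40.5% of all genes. The protease Ctsk lay lower, at -0.64 (SE 0.23), with medians of 162 in young and 94.96 in old rats. The medians of Ctsk were 217 and 97.9 among R9 rats, where the highest young value, 495, was in R9876. In the R1 and R2 series the old median was not lower, with 85.7 in young and 94.7 in old rats, and the log2 difference there was -0.27.

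While 40.5% of all genes were above 0, genes of the meninges and fibroblasts were all below 0 (14 of 14, median -0.67). Below 0 as well were 30 of 36 collagen and basement membrane genes (median -0.22). The medians were -0.385 and -0.17 with R1 and R2 rats alone. Those values moved with R9876. Col3a1, a fibrillar collagen, was 13.9, 45.0, 68.5, 68.9 and 2899 in R9 young rats and 23.3, 31.7, 47.0, 48.7 and 68.7 in R1 and R2 young rats, with medians of 47.9 in young and 24.9 in old rats. Its log2 difference was -1.11 (SE 0.44) and, without R9876, -0.56. The defining markers Dcn, Lum and Col1a1 gave -0.41 (SE 0.36), -0.32 (SE 0.32) and -0.95 (SE 0.51), and without R9876 -0.13, -0.04 and -0.44. In the R1 and R2 series alone that of Dcn was -0.004, that of Lum 0.30 and that of Col1a1 -0.55. Without R9876 the median of the meningeal list was -0.24 with 4 of 14 members above 0, and that of the collagen list was -0.10 with 15 of 36 above 0. The 11 tested choroid plexus genes were all below 0, with a median of -0.67, which was -0.56 without R9876 and -0.92 with R1 and R2 rats alone. Their summed level ranged from 144 to 15070 in young and from 72.0 to 2972 in old rats. The median of that sum was higher in old rats, with 337.8 in young and 400.4 in old. Their defining marker Ttr, a thyroid hormone carrier, gave -0.86 (SE 0.94), with its highest value, 13330, in young rat R2221. The other defining markers, the folate receptor Folr1 and Kl, gave -0.47 (SE 0.47) and -0.67 (SE 0.69). The highest value of Kl, 276, was in R2221 as well, and without that rat Ttr gave -0.12 and Kl -0.03.

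Several neuronal and synaptic lists lay near the median of all genes, -0.03, and the dentate granule list lay above it. All 10 tested dentate granule markers were above 0, against 40.5% of all genes, with a median of 0.21. None had an unadjusted p under 0.05, and the median was 0.33 among R9 rats and 0.15 among R1 and R2 rats. CA3 pyramidal markers had a median of -0.10 (11 tested), GABAergic interneuron markers -0.10 (24), glutamate receptors and transporters 0.02 (31), GABA receptors 0.02 (13) and calcium channels and handling 0.03 (30), with none past an unadjusted p of 0.05. Synaptic proteins had 24 of 29 above 0, against 40.5% of all genes, and a median of 0.06. Toward old rats 2 members had an unadjusted p under 0.05, against 0.923% of all genes. They were Syn1 (0.22), which tethers synaptic vesicles, and Rims1 (0.19), a scaffold of the active zone. Without R9876 the median was 0.02 and 0 members passed, and 0 passed with either series alone. Oligodendrocyte and myelin genes had a median of -0.04, which was 0.22 among R9 rats and -0.296 among R1 and R2 rats. CA1 pyramidal markers had a median of -0.83 among R9 rats and 0.385 among R1 and R2 rats. That list holds Dcn, which is also a meningeal marker here, and the R9 median is the value of Dcn itself, -0.83. None of the 44 lists held a gene past an adjusted p of 0.05.

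**Figure D4:**
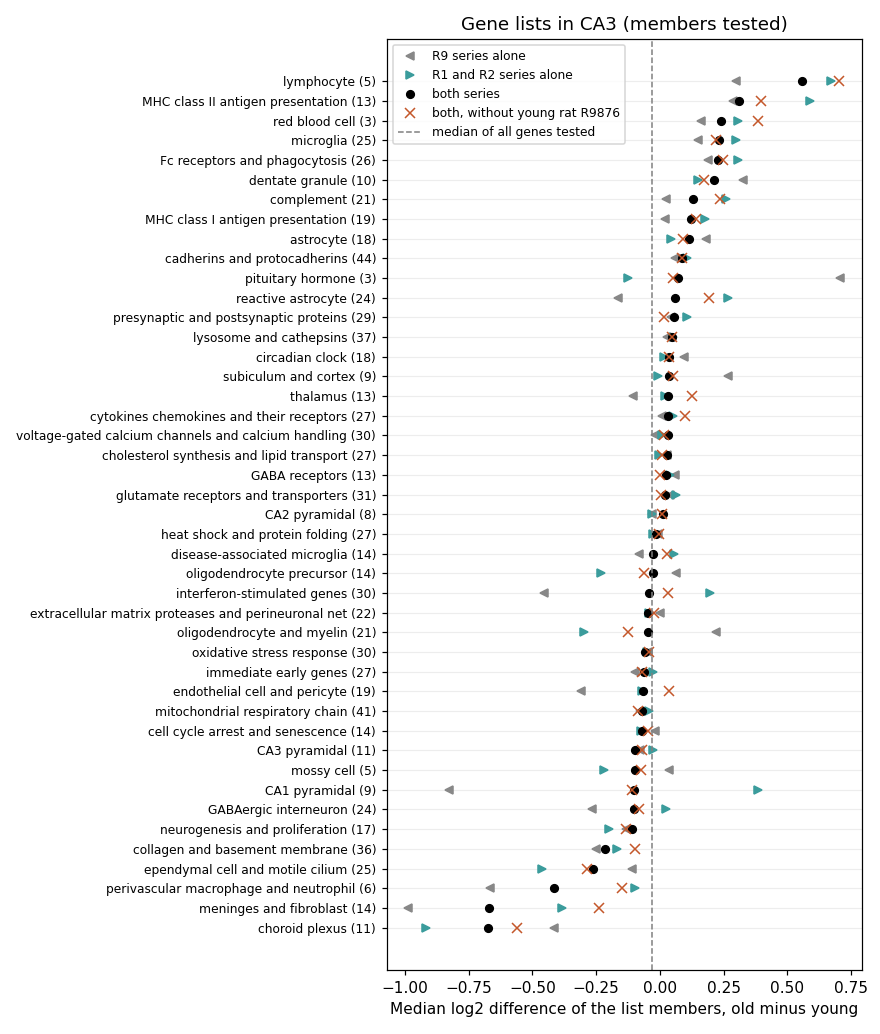
Median log2 difference (old minus young) of the tested members of 44 gene lists, with the number of members in brackets. Black circles use both series, triangles each series alone and crosses both series without young rat R9876, and the dashed line is the median of all genes, -0.03. The class II list is at 0.31, and the meningeal list moves from -0.67 to -0.24 without R9876.

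No gene passed an adjusted p of 0.05 between old impaired and old unimpaired rats in CA3 (limma, 0 of 16471), with 491 genes at an unadjusted p of 0.05 (2.98%) and no other tool run. For AABR07006310.1 the AU median was 871 and the AI median 832, and the log2 difference between them was 0.003. For RT1-Ba, AU rats ranged from 34.8 to 749 and AI rats from 46.5 to 2071, with an AI minus AU difference of -0.20 (unadjusted p = 0.69, limma).

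The same rats gave CA1 and DG libraries, so the age difference in CA3 was compared with that in each of the other subfields as a difference within the rat. No gene passed an adjusted p of 0.05 (limma) for CA3 minus CA1 (0 of 16452) or for CA3 minus DG (0 of 16365). At an unadjusted p of 0.05, 159 (0.966%) and 448 (2.74%) genes passed, and no other tool was run. With the same model within a subfield, 4 genes were called in CA1 (0.0244%) and 21 in DG (0.13%). For RT1-Ba the age difference was 2.07 in CA3, 1.13 in CA1 and 2.12 in DG. The CA3 minus DG value was -0.06 (95% CI -1.08 to 0.96), an interval wide enough to hold a difference of 1 log2 unit toward DG. For AABR07006310.1 the age difference was 0.48 in CA3, 0.29 in CA1 and 0.34 in DG, and CA3 minus CA1 was 0.197 (95% CI -0.09 to 0.49). For C3 it was 0.75, 0.82 and 0.90, and CA3 minus DG was -0.15 (95% CI -0.54 to 0.24). For Gfap it was 0.44, 0.58 and 0.51. Cdh1 gave the widest gap of the genes set side by side, with 0.87 in CA3, 1.91 in CA1 and 2.57 in DG. Its CA3 minus DG value was -1.71 (95% CI -2.88 to -0.54, unadjusted p = 0.0054, adj-p = 1.0, limma). The CA3 value of Cdh1 moved with young rat R9876, whose count was 577. It was 1.37 without that rat and 2.24 in the R1 and R2 series alone. CA3 minus DG was not computed without R9876, so a weaker age difference of Cdh1 in CA3 cannot be read from this gap.

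**Figure D5:**
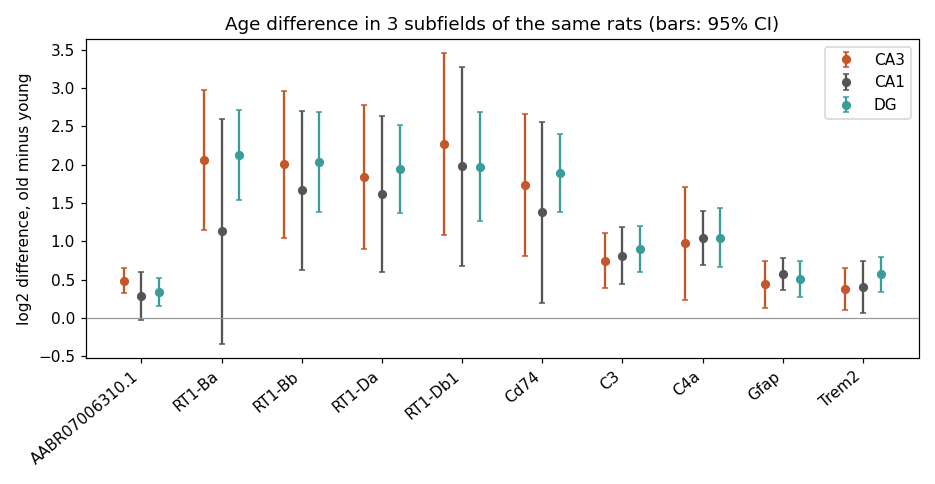
Log2 difference between old and young rats in CA3, CA1 and DG of the same animals, with 95% confidence intervals from limma, for 10 genes. The class II differences in CA3, 1.74 to 2.27, have wider intervals than those in DG.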

How the data were processed

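Poly-A RNA from 34 CA3 dissections was sequenced on an Ion Proton. Per the labels, the authors aligned reads to rn5 with TopHat2 and Bowtie2 in Partek, counted genes with featureCounts 1.4.4 and normalized with DESeq2 1.10.1. The deposited signal values are such normalized counts, and in CA3 all of them (100%) became whole reads (tolerance 0.001) on division by 1 step per library. The file names 21970 of 26689 genes. Members and lists were chosen with earlier results of these data known.

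Log2(normalized count + 1) of genes with a CA3 mean of at least 5 was fitted by limma 3.58.1 (R 4.3.3) on age and identifier series, with a trended prior and Benjamini-Hochberg adjustment over all genes, so fold changes of low genes are understated. Because the file holds normalized values, limma was the main test, and edgeR 4.0.16 and DESeq2 1.42.0 ran on the recovered reads. Subfield comparisons used differences within each rat. Pairing came from the labels, since 1 rat gave all 3 libraries. Deviations of CA3 from the group mean correlated with those of CA1 and DG of the same rat by 0.10 and 0.05 on average over 34 rats. Named genes were the 12 with the smallest p per direction past adjusted p of 0.05, or the 5 with the smallest p where none passed, and the first 3 markers of each described cell type. Other named genes were chosen after their values were seen. Scripts were tested on simulated data. P-values measure the spread between animals. Alternatives covered pseudocounts, filters, scaling, weights, covariates, each series and each rat left out. One gene of the lymphocyte list is not reported here.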

Additional observations from a re-analysis of the deposited data

Results flagged for a closer look

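A single young library lay far from the other 9 for 7 of 61 genes examined, with a gap over range above 0.466. Chance alone flags about 1 in 20 groups at this criterion, but many of these genes were chosen after their values were seen and the genes share libraries, so the 7 of 61 cannot be read against that rate. Young rat R9876 was the far library for 6 of them, each on the high side. Its normalized counts were 1951 for Col1a1 (next young library 97.6), 2899 for Col3a1 (next 68.9), 1448 for Dcn (next 355), 577 for Cdh1 (next 57.5), 459 for C4a (next 141) and 326 for C4b (next 85.7). The same library had the highest summed meningeal and fibroblast level, 148400. On the low side, Fcgr3a was 12.02 in young rat R1923, beside 26.3 in the next library.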

How the results depend on the processing

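The count of genes past an adjusted p of 0.05 for age in CA3, 1, was 0 in the R9 series alone, 2 with no filter on low values (adding AC130391.1, lower in old rats), 4 with dissection scores as covariates (adding RT1-Ba, RT1-Bb and RT1-Db1) and 18 with array weights, 17 higher and 1 lower. Leaving out each rat gave 0 to 3 genes: 0 without R2175 or R2221 and 3 without R9876 (adding RT1-Ba and RT1-Bb). In the R1 and R2 series alone the count was 1, but the gene was Cdh1. Removing libraries whose CA3 score was not highest kept the R1 and R2 rats and old rat R9781, the only R9 library left. With the series as a covariate, the age differences there rested on the R1 and R2 rats. The log2 difference of AABR07006310.1 stayed between 0.41 and 0.56 in the 13 other settings and passed in 10 of them. The array-weight calls were AABR07006310.1, RT1-Ba, RT1-Bb, RT1-Da, RT1-Db1, Cd74, C3, Birc7, Doc2g, Tnfsf13, Adgre1, Fcgr2b, RGD1560017, Cdh23, Pcdhga6, Trem2 and Gipr (higher) and Cox5b (lower). The lowest weights were 0.07 (old rat R1931) and 0.202 (old rat R9781). The cause was not tested.

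Counts of 0 for the series interaction, AI against AU, and CA3 against CA1 or DG stayed 0 in every setting run. With no replicate block they were 0 for CA1 and 0 for DG. No pairing exists within the CA3 age contrast, since young and old rats are different animals. Signs changed, for genes not called with all rats, in these settings. In R1 and R2 alone (and without libraries whose CA3 score is not highest) values were -0.021 for Aif1, -0.16 for Aqp4, -0.099 for Aldh1l1 and 0.304 for Lum. In R9 alone they were -0.14 for RT1-DMa, -0.030 for Ifi30, -1.01 for Ciita and -0.57 for Cdh1. Array weights gave -0.059 for Aldh1l1 and -0.015 for RT1-DMa, and Cdh1 was -0.078 by edgeR and -0.045 by DESeq2. Leaving out 1 rat gave -0.075 to 0.112 for Aif1, -0.049 to 0.143 for Aqp4, -0.047 to 0.075 for Aldh1l1 and -0.057 to 0.352 for Ciita. DESeq2 differences are shrunk toward 0, so that RT1-Ba was 0.25. Depth and rat number limit small differences, and 15 of 16 R9 libraries score highest for CA1 or DG markers.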

Other observations

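Class II levels of the old rats were compared between CA3 and the other subfields of the same animals (log2 normalized counts, 24 rats, 4 relations, 100000 permutations, two-sided). For Cd74, Pearson's r was 0.09 with CA1 (permutation p = 0.63, adjusted p = 0.68; Spearman's rho 0.08, permutation p = 0.69) and -0.14 with DG (permutation p = 0.52, adjusted p = 0.68; rho -0.24, permutation p = 0.27). For RT1-Ba, r was 0.09 with CA1 (permutation p = 0.68, adjusted p = 0.68; rho 0.00, permutation p = 1.0) and -0.19 with DG (permutation p = 0.38, adjusted p = 0.68; rho -0.32, permutation p = 0.13). Without the 2 rats farthest from the median in CA3 the 4 values of r were 0.03, -0.27, 0.01 and -0.39 in that order. The permutations did not keep rats within their series, and the values within a series differed from the pooled ones. With CA1, r for Cd74 was 0.37 in the 13 rats of the R1 and R2 series and 0.355 in the 11 rats of the R9 series, and for RT1-Ba it was 0.43 and -0.05. Between CA3 and DG the sign differed by series. For Cd74, r was 0.75 in the R1 and R2 series and -0.40 in the R9 series, and for RT1-Ba it was 0.59 and -0.63. These within-series values were not tested.

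Prl, which encodes the pituitary hormone prolactin, was listed at 0 in all 10 young CA3 libraries and above 0 in 11 of 24 old ones, with a highest normalized count of 315. That value of 315 was in old rat R2233, and the next was 52.3 in old rat R2231. With every young library at 0, Prl passed the level filter only through old libraries, so no p-value is given. Its log2 difference was 1.37 (SE 0.66). The highest value was 4.05 in AU rats and 315 in AI rats. By series it was 4.05 in old R9 rats and 315 in old R1 and R2 rats. Young libraries were also at 0 in CA1 and DG, where old libraries reached 55.8 and 63.4.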
